A study of Rattus norvegicus with 16 samples.

Results

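The collagen and laminin chain genes of rat liver were taken as all genes whose symbol starts with Col, a number, a and a number, or with Lama, Lamb or Lamc and a number. The pattern matched 55 of the 22587 genes in the table. Col4a3bp also fits it but encodes a ceramide transfer protein and no collagen chain. This left 54 chain genes, 43 of collagens and 11 of laminins. A test was made where the mean over the 16 libraries was at least 14.7 normalized read counts, 1 in 1000000 of the median library total. On that rule 33 chains were tested, 24 of collagens and 9 of laminins, and 21 were low. Col11a1, with a mean of 15.02, lay just inside the limit, and Col5a3, with 13.7, just outside it. Col11a1 reached the limit only through ADREX ozone livers, so its place among the tested chains is tied to its level there.

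RNA was sequenced from livers of male rats, 13 weeks old, of the strain that the labels spell Wistar-Wyoto. ADREX rats had both adrenal glands removed and SHAM rats had sham surgery. Rats of either kind then breathed ozone at 0.8 ppm or air, for 4 hours. The groups were ADREX ozone, ADREX air, SHAM ozone and SHAM air, with 4 libraries each. Adrenalectomy takes away the steroid hormones of the cortex and the catecholamines of the medulla together, so ADREX cannot tell these apart. The treatment field of the labels gives ozone for the ADREX air libraries while their titles say air. The titles were followed, and each result that uses ADREX air rests on them. Nothing in the labels says that the libraries of a group came from separate animals, so p-values measure the spread between these libraries.

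Collagens are proteins of several chains wound into a helix. Fibrillar collagens build the cables of the liver's portal tracts and capsule, type IV collagen builds the sheet of basement membranes, and other types decorate fibrils, form beaded filaments or span membranes. Laminins are cross-shaped proteins that join an alpha, a beta and a gamma chain, and they start basement membranes under epithelia and around vessels, nerves and muscle. In healthy liver the matrix of the sinusoid wall is sparse and is made largely by stellate cells and endothelium, while fibrosis adds fibrillar collagen. Whether a single exposure of this length touches these genes, and whether that depends on the adrenal glands, is what the 4 groups allow to be compared.

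The libraries held 8372891 to 14096246 reads and 15224 to 17439 genes with a read. The values are read counts divided by a size factor, and 3 reads correspond to 3.14 to 6.02 normalized counts. Hepatocyte markers summed to 124185 to 231659 reads in 1000000 (RPM) over the 16 libraries, with no marker of that list at 0, so the tissue label held. Markers of neurons and oligodendrocytes were also present, at 919 to 5257 RPM in ADREX ozone, 298 to 1284 in ADREX air, 84.6 to 3114 in SHAM ozone and 49.9 to 932 in SHAM air livers. The 3 libraries richest in them were ADREX ozone 82, SHAM ozone 18 and ADREX ozone 81. Stellate cell markers summed to 309 to 448, 354 to 549, 258 to 341 and 382 to 466 RPM in the same order of groups. Endothelial markers summed to 371 to 556, 388 to 849, 331 to 538 and 573 to 627 RPM. In both of these lists SHAM ozone lay below SHAM air without overlap. In whole liver, fewer cells of a type and less RNA per cell cannot be told apart.

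The 3 chains that passed the test in a comparison were Lamc1, Lama3 and Col4a3. Their promoters, 250 bases before the start, are shown with that of Col4a4, which starts 413 bases from Col4a3 on the other strand. The sequences come from RefSeq on GRCr8, which held 43 of the 54 chains, and the coordinates are of that build and not of the authors' rn6. Each is written along its own gene, with minus strand genes turned round, and capitals mark matches to a GC box (GGGCGG or CCGCCC) or an AP-1 site (TGANTCA), searched on both strands.
Lamc1, chr13:68051987-68052236, minus strand: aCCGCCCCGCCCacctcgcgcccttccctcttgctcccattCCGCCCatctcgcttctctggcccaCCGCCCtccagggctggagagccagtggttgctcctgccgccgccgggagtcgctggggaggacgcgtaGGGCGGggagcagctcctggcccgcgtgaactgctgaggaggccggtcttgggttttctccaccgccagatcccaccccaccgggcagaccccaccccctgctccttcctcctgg
Lama3, chr18:3952517-3952766, plus strand: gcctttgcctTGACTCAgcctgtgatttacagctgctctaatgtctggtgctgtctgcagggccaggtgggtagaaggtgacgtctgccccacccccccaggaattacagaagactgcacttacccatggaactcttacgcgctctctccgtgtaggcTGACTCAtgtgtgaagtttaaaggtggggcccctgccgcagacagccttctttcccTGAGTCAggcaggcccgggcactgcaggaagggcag
Col4a3, chr9:91323740-91323989, plus strand: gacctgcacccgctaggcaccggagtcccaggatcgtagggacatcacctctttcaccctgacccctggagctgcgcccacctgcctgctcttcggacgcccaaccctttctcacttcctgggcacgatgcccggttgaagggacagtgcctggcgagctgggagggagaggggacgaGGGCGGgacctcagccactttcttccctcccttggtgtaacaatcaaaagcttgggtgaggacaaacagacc
Col4a4, chr9:91323578-91323827, minus strand: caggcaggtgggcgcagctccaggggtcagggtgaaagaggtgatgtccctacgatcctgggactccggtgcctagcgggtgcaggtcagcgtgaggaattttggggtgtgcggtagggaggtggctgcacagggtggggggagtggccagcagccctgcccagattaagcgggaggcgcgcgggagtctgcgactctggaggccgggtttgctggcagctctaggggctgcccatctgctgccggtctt
The Lamc1 window held 5 GC boxes, of which the leading ones overlap, and no AP-1 match. The Lama3 window held 3 AP-1 matches and no GC box, at a start that lies inside the annotated span of the gene, where other starts exist. Col4a3 held 1 GC box and Col4a4 neither. Of all 33469 promoters in the table, 6.34% held an AP-1 match and 30.5% a GC box, against 4.65% (2 of 43) and 55.8% (24 of 43) of the chain promoters. Since corticosterone, the main adrenal steroid of rats, acts through the glucocorticoid receptor, its half-site AGAACA was also searched, on both strands, as was the full site, in which the half-site is followed by 3 bases of any kind and TGTTCT. The half-site stood in 14.0% of chain promoters (6 of 43) and 17.5% of all, and the full site in none of the chain promoters and 0.012% of all. A CCAAT box stood, on either strand, in 30.2% of chain promoters (13 of 43) and 34.0% of all. None of the 4 windows shown held a half-site, a full site or a CCAAT box. These are matches of letters and not tests of binding.

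**Figure D1:**
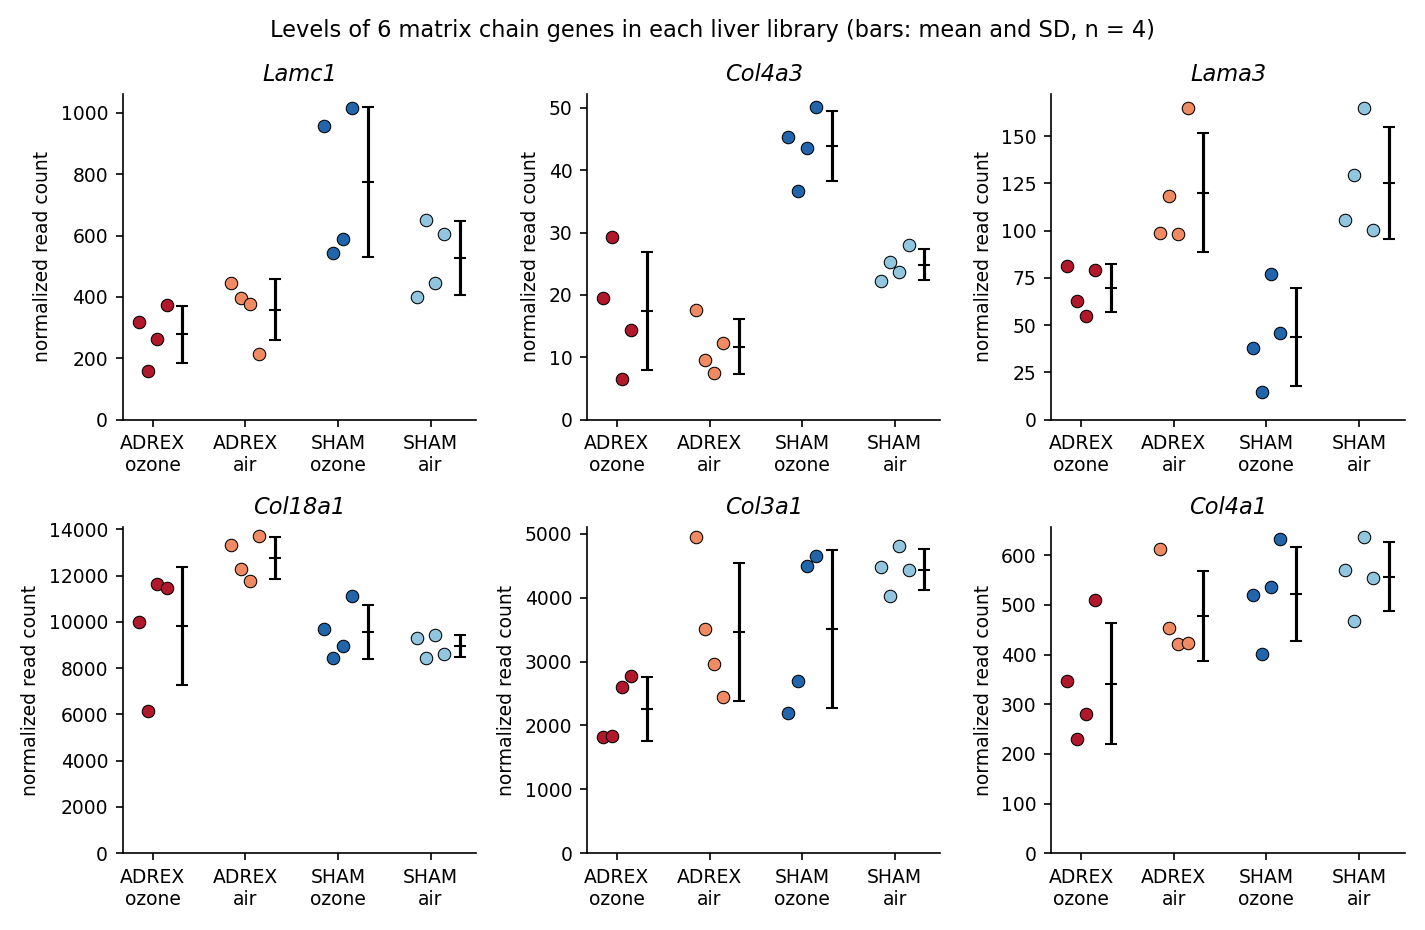
Normalized read count of 6 chain genes in each library (points), with the mean and SD of each group of 4 (bars), ADREX ozone, ADREX air, SHAM ozone and SHAM air from left to right. Lamc1 lay between 157 and 373 in ADREX ozone and between 542 and 1015 in SHAM ozone livers, and all 4 Lama3 values in SHAM ozone lay below those in SHAM air.

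Under ozone, the adrenalectomized livers had less Lamc1 and less Col4a3 than the sham-operated ones, and no chain passed the test in the other direction. Lamc1 encodes the gamma chain shared by most laminins. It had 319, 157, 262 and 373 normalized counts in ADREX ozone livers, against 956, 542, 589.8 and 1015 in SHAM ozone livers. Every ADREX ozone library lay below every SHAM ozone library. The log2 change was -1.49 (SE 0.29, 2.81-fold lower on the log2(count + 1) scale), with an adjusted p of 0.00484 in limma's test over 12791 genes. In air it had 445, 397, 377 and 215 in ADREX livers and 400.3, 649.8, 446 and 606 in SHAM livers, and the SHAM air values overlapped those of SHAM ozone.

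Col4a3 encodes a type IV collagen chain best known from the filter of the kidney, where it pairs with Col4a4 and Col4a5. Its counts were 19.4, 29.3, 6.58 and 14.4 in ADREX ozone livers, against 45.3, 36.7, 43.5 and 50.1 in SHAM ozone livers. These groups did not overlap either, and the lowest value, 6.58, was close to the level that 3 reads allow. The log2 change was -1.44 (SE 0.39, 2.72-fold lower; limma, adjusted p 0.0249). In air Col4a3 had 17.7, 9.53, 7.45 and 12.2 counts in ADREX livers, against 22.3, 25.2, 23.8 and 28.1 in SHAM livers, so that SHAM ozone held the highest level of the 4 groups. The call was lost when SHAM ozone 17, 19 or 20 or ADREX ozone 83 was left out, with adjusted p of 0.0666, 0.0543, 0.0742 and 0.0684, and in the fit of these 2 groups alone, with 0.0524. Lamc1 passed in all alternatives run, with adjusted p between 3.12e-05 and 0.0357.

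The 2 calls among 33 chains, 6.06%, stand beside 12.5% of all genes tested, so chains were called no more often than genes in general. At an unadjusted p under 0.05 stood 13 chains, 39.4%, with Col11a1 among them, against 31.2% of all genes (3986 of 12791). With a neural marker score in the model these were 6 chains and 3222 genes, and 7 chains and 2643 genes when the 3 libraries with most neural marker reads were left out. Groups did not overlap for 5 chains lower in ADREX ozone (15.2%, against 9.94% of all genes), which were Lamc1, Col4a3, Col4a2, Col8a1 and Lama2. They did not overlap for 3 chains higher in it (9.09%, against 10.6%), which were Col11a1, Col16a1 and Lama4, and Col11a1 was admitted through this group alone. The median log2 change of the 33 chains was -0.19, beside 0.11 for all genes, and 18 chains were below 0. After rescaling by the trimmed mean of M values (TMM) the 2 medians were -0.30 and 0.01, with 21 chains below 0. All 5 type IV chains tested were below 0 in each scaling, with a median of -0.53 as deposited. Of these, Col4a1, the common chain of basement membranes, had 348, 229, 279.8 and 509 counts in ADREX ozone livers, against 521, 401, 537 and 633 in SHAM ozone livers, a log2 change of -0.66 with an adjusted p of 0.0590 (limma). It passed without ADREX ozone 84, at 0.0120, and without SHAM ozone 18, at 0.0388, and after both rescalings.

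Neural markers moved with this comparison, at 919 to 5257 RPM in ADREX ozone, against 84.6 to 3114 in SHAM ozone livers. With the neural marker score in the model, Lamc1 had a log2 change of -1.12 (adjusted p 0.0130, limma) and Col4a3 of -1.57 (0.0289). Without the 3 libraries richest in these markers the values were -1.41 (0.0357) for Lamc1 and -2.13 (0.0200) for Col4a3. Kupffer cell markers summed to 756 to 1542 RPM in ADREX ozone, against 624 to 893 in SHAM ozone livers, and 3 of 10 passed the test upward. Stellate cell markers summed to 309 to 448 against 258 to 341 RPM, and 1 of 15 passed upward. The part of the Kupffer and stellate cell markers in the chain results was not tested.

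In sham-operated rats, Lama3 fell with ozone and was the 1 chain of 33 that passed (3.03%, beside 1.58% of all genes tested). Lama3 encodes an alpha chain of the laminin that anchors surface epithelia, which also needs Lamb3. Its counts were 37.7, 14.7, 77.3 and 45.7 in SHAM ozone livers, against 106, 129.7, 165 and 100.3 in SHAM air livers. The groups did not overlap, and SHAM ozone 18 was the lowest. The log2 change was -1.68 (SE 0.36, 3.21-fold lower; limma, adjusted p 0.0301). This call rests on few libraries. It was lost without SHAM ozone 17 (0.0921), SHAM ozone 20 (0.0734), SHAM air 2 (0.0971) or SHAM air 4 (0.0535), in the fit of these 2 groups alone (0.0817), with the neural score in the model (0.0533), and with the 3 libraries highest in neural markers left out, where the log2 change was -1.25 (0.0685).

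Lama4, the alpha chain of vessel walls, had 34.7, 34.3, 33.7 and 36.9 counts in SHAM ozone livers, against 66.97, 97.3, 68.8 and 72.2 in SHAM air livers. The groups stood clear of each other and the 4 ozone values were nearly alike. Its log2 change of -1.09 (SE 0.32) did not pass the test (limma, adjusted p 0.0905), but passed in the fit of these 2 groups alone (0.0451) and with array quality weights (0.0250). Besides Lama3 and Lama4 no chain was lower without overlap (2 of 33, 6.06%, beside 5.93% of all genes), and only Col4a3 was higher without overlap (3.03%, beside 5.14%). All 4 alpha chains tested were below 0, with a median of -0.78, and all 4 type VI chains were below 0, with a median of -0.35. The median of the 33 chains was -0.24, beside 0.01 for all genes, with 22 below 0, and at an unadjusted p under 0.05 stood 2 chains (6.06%, beside 18.4%). The stellate and endothelial marker sums were also lower in SHAM ozone than in SHAM air livers, at 258 to 341 against 382 to 466 RPM and 331 to 538 against 573 to 627 RPM, although no marker of either list passed the test. Cholangiocyte markers, by contrast, summed to 38.45 to 56.9 RPM in SHAM ozone, against 15.3 to 38.9 in SHAM air livers. Markers of portal fibroblasts, smooth muscle and mesothelium summed to 79.7 to 116 against 59.6 to 103 RPM. No marker of these lists passed the test. The part of all these marker sums in the laminin values was not tested.

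In adrenalectomized rats no chain passed the test between ozone and air, where 0.125% of all genes did. At an unadjusted p under 0.05 stood 7 chains (21.2%, beside 17.8% of all genes), with Col3a1, Col4a1, Col8a1, Col18a1 and Lama2 lower in ADREX ozone livers and Col11a1 and Col11a2 higher. With the neural marker score in the model 1 chain and 2073 genes stood there, and 2 chains and 1408 genes when the 3 libraries with most neural marker reads were left out, beside 7 chains and 2282 genes with neither step. edgeR called 0 chains and DESeq2 1, Col11a1. That gene reached the limit for testing only through ADREX ozone livers. Neither its DESeq2 call nor its place among the 7 chains can therefore support a change. Its values are given as a description. Col11a1 had 58.3, 57.6, 18.7 and 24.5 counts in ADREX ozone livers, against 8.24, 5.30, 2.98 and 8.56 in ADREX air livers. Col11a2 had 117, 159, 76.8 and 54.7 counts in ADREX ozone livers, against 30.6, 24.4, 7.45 and 36.7 in ADREX air livers. Both encode chains of type XI collagen, known from cartilage fibrils, and in both the groups did not overlap. They were the 2 chains of 33 higher without overlap (6.06%, beside 6.99% of all genes), and Col11a1 was admitted through ADREX ozone livers alone. The log2 change of Col11a2 was 2.08 (SE 0.78; limma, adjusted p 0.197). Lama3 and Col18a1 were the 2 lower without overlap (6.06%, beside 2.98%), with log2 changes of -0.77 and -0.42.

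Most chains lay below 0 here, 27 of 33, with a median of -0.25 beside 0.06 for all genes, of which 5545 of 12791 were below 0. The count was 29 after TMM and after median-of-ratios scaling. Col3a1, the main chain of the liver's reticular fibres, had 1813, 1834, 2608 and 2768 counts in ADREX ozone livers, against 4949, 3508, 2956 and 2447 in ADREX air livers. The ranges overlapped, and the log2 change of -0.60 had a 95% interval of -1.13 to -0.06 (limma, adjusted p 0.239). The neural marker sum was 919 to 5257 RPM in ADREX ozone livers, against 298 to 1284 in ADREX air livers. With the neural score in the model the log2 change of Col3a1 was -0.47 (limma, adjusted p 0.402), and without the 3 libraries richest in these markers -0.32 (0.680).

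The ozone effect in ADREX rats minus that in SHAM rats was tested directly, and no chain passed, where 0.109% of all genes did. Neither edgeR nor DESeq2 called a chain. At an unadjusted p under 0.05 stood 1 chain, Lamc1 (3.03%, beside 12.9% of all genes), with a difference of -0.92 (SE 0.42; limma, adjusted p 0.368). Within SHAM rats Lamc1 had a log2 change of 0.53 with ozone, and within ADREX rats of -0.39, and neither passed. For Lama3 the difference was 0.91 (SE 0.51; adjusted p 0.451), with -1.68 in SHAM and -0.77 in ADREX rats. Its fall in SHAM rats is therefore not shown to be absent in ADREX rats. The differences had SEs of 0.259 to 1.30, and 5 of 33 had a 95% interval inside -1 to 1.

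In air, adrenalectomy alone gave no chain past the test, where 3.53% of all genes passed. At an unadjusted p under 0.05 stood 3 chains (9.09%, beside 20.2%), among them Col18a1, higher in ADREX air livers, and Col4a3, lower in them. edgeR and DESeq2 called 0. Col18a1, whose tail is cut to endostatin and which hepatocytes are known to make, had 13318, 12275, 11749.8 and 13718 counts in ADREX air livers, against 9313, 8442, 9433 and 8624 in SHAM air livers. The groups were clear of each other, and Col18a1 was the 1 chain higher without overlap (3.03%, beside 4.24% of all genes). The log2 change was 0.51 (SE 0.18; limma, adjusted p 0.137), and it passed with array quality weights (0.0434) and without ADREX ozone 82 (0.0407), a library outside the comparison that enters the shared estimate of spread. Col4a3, given above, was the 1 chain lower without overlap (3.03%, beside 5.03%), with -1.08 (SE 0.39; adjusted p 0.141). The median of the chains was -0.25, beside 0.04 for all genes, with 23 of 33 below 0.

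The 4 comparisons between groups share libraries in pairs, and the 95% intervals show how far they reach. Intervals lay inside -1 to 1 for 9 of 33 chains in ADREX ozone against SHAM ozone, 14 in ADREX ozone against ADREX air, 15 in SHAM ozone against SHAM air and 18 in ADREX air against SHAM air livers. SEs ran from 0.183 to 0.917, with a median of 0.346. For the other chains the interval did not exclude a change of 1 on the log2 scale.

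**Figure D2:**
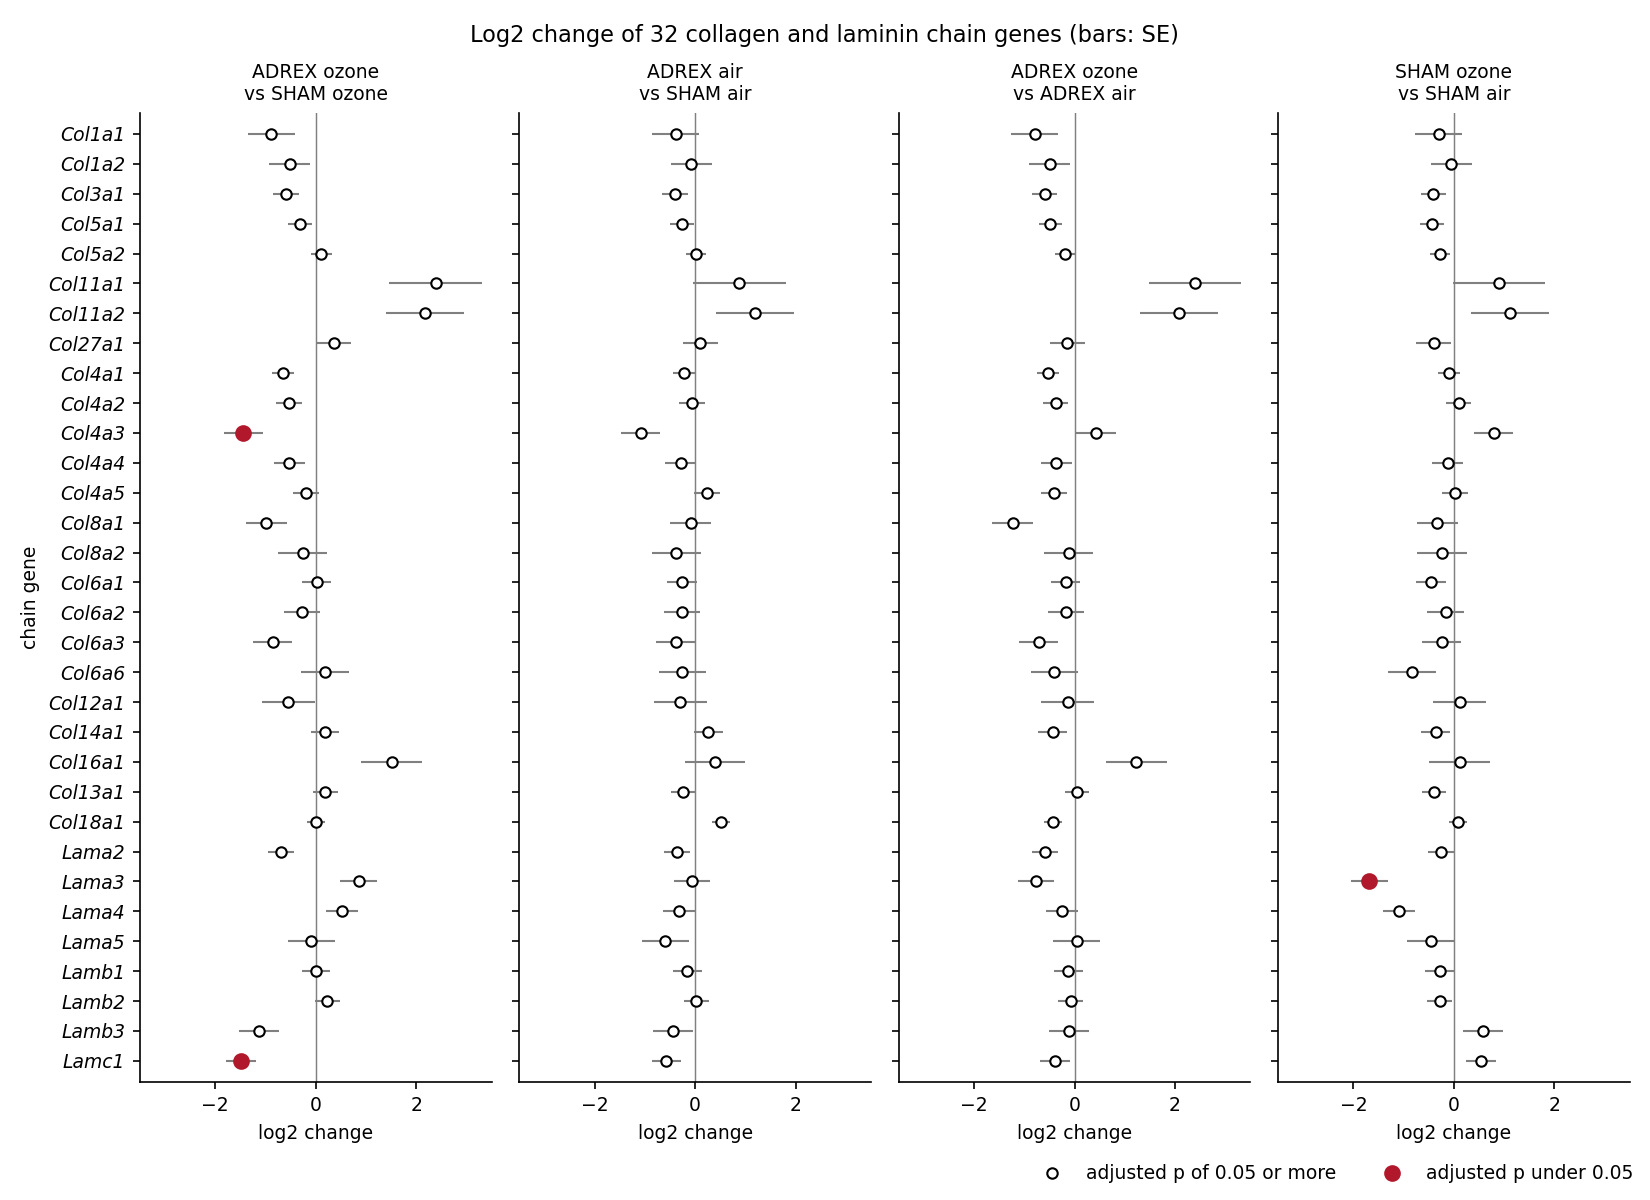
Log2 change of 32 of the 33 tested chain genes (points, with SE bars) in 4 comparisons, one panel each, with filled points for those past the test. The filled points are Lamc1 and Col4a3 in ADREX ozone against SHAM ozone and Lama3 in SHAM ozone against SHAM air livers.

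Summed over the 54 chains, reads made up 1113 ± 195 RPM in ADREX ozone, 1481 ± 250 in ADREX air, 1202 ± 154 in SHAM ozone and 1208 ± 83.5 in SHAM air livers (SD, n = 4). Col18a1 gave 57.1 to 66.5% of these reads in ADREX ozone, 55.9 to 69.0% in ADREX air, 49.98 to 59.7% in SHAM ozone and 45.1 to 50.7% in SHAM air livers. Without it the sums were 421 ± 81.5, 570 ± 178, 546 ± 106 and 616 ± 27.6 RPM in the same order. SHAM air held the highest group mean for 19 of the 33 tested chains, ADREX air for 7, SHAM ozone for 4 and ADREX ozone for 3. The lowest mean was in ADREX ozone for 16 chains, in SHAM ozone for 11, and in ADREX air and SHAM air for 3 each. These counts treat small and large gaps alike, and all chains come from the same libraries.

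Among the fibrillar chains, Col3a1 had its lowest mean in ADREX ozone and its highest in SHAM air livers. It had 2256 ± 503 in ADREX ozone, 3465 ± 1079.9 in ADREX air, 3512 ± 1243 in SHAM ozone and 4439.6 ± 318 in SHAM air livers (normalized counts, mean ± SD, n = 4, as for all levels that follow). Col1a1 and Col1a2 form type I collagen, the stiff fibre of scar. Col1a1 had 98.4 ± 78.3 in ADREX ozone, 162 ± 101 in ADREX air, 152 ± 29.1 in SHAM ozone and 205 ± 119 in SHAM air livers. Col1a2 had 261 ± 179 in ADREX ozone, 324 ± 81.4 in ADREX air, 338 ± 125 in SHAM ozone and 365 ± 153 in SHAM air livers. Both were lowest in ADREX ozone livers, with SDs that reach over the other groups, and the log2 changes against SHAM ozone were -0.88 and -0.52. In ADREX ozone livers single values of Col1a1 were 48.03, 54.5, 76.8 and 214, and without ADREX ozone 84 its change against SHAM ozone was -1.35, past the test (limma, adjusted p 0.0455).

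Col5a1 and Col5a2 form type V collagen, which sets the start and width of fibrils. Col5a1 had 108 ± 29.00 in ADREX ozone, 154 ± 50.4 in ADREX air, 133 ± 24.8 in SHAM ozone and 177 ± 15.2 in SHAM air livers. Col5a2 had 137 ± 36.9 in ADREX ozone, 153 ± 23.3 in ADREX air, 125 ± 21.6 in SHAM ozone and 152 ± 26.8 in SHAM air livers. No pair of groups differed past the test for either. Col27a1, a fibrillar chain of cartilage, had 61.7 ± 25.1 in ADREX ozone, 64.9 ± 14.4 in ADREX air, 46.3 ± 13.5 in SHAM ozone and 61.9 ± 20.8 in SHAM air livers. Col11a1 had 39.8 ± 21.2 in ADREX ozone, 6.27 ± 2.64 in ADREX air, 7.59 ± 5.54 in SHAM ozone and 6.45 ± 7.48 in SHAM air livers, and Col11a2 had 102 ± 46.05 in ADREX ozone, 24.8 ± 12.6 in ADREX air, 29.2 ± 25.5 in SHAM ozone and 15.3 ± 20.7 in SHAM air livers. Of the tested fibrillar chains, those of type XI had their highest mean in ADREX ozone livers, and against SHAM ozone the log2 change of Col11a2 was 2.17 (SE 0.78; limma, adjusted p 0.0754).

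In the basement membrane sheet, Col4a1 and Col4a2 are the chains found in nearly all tissues. Col4a1 had 342 ± 122 in ADREX ozone, 478 ± 91.2 in ADREX air, 523 ± 94.9 in SHAM ozone and 557 ± 69.05 in SHAM air livers. Col4a2 had 144 ± 18.5 in ADREX ozone, 191 ± 54.6 in ADREX air, 211 ± 47.5 in SHAM ozone and 202 ± 68.3 in SHAM air livers. Both were lowest in ADREX ozone livers, and Col4a2 had 156, 116, 154 and 149.7 there, against 166, 179.8, 229 and 269.9 in SHAM ozone livers, without overlap (log2 change -0.53; limma, adjusted p 0.157). The chains Col4a3, Col4a4 and Col4a5 build the sheet of the kidney filter and inner ear. Col4a3 had 17.4 ± 9.53 in ADREX ozone, 11.7 ± 4.42 in ADREX air, 43.9 ± 5.57 in SHAM ozone and 24.8 ± 2.47 in SHAM air livers. Col4a4 had 91.1 ± 9.83 in ADREX ozone, 128 ± 64.8 in ADREX air, 137 ± 47.9 in SHAM ozone and 147 ± 40.2 in SHAM air livers, and Col4a5 had 62.3 ± 18.97 in ADREX ozone, 80.6 ± 15.3 in ADREX air, 70.8 ± 19.6 in SHAM ozone and 68.4 ± 13.2 in SHAM air livers. Only Col4a3 of these passed a test, and its neighbour Col4a4 had a log2 change of -0.53 (95% interval -1.18 to 0.12) in ADREX ozone against SHAM ozone livers. Of the short network chains, Col8a1, known from vessel walls, had 20.7 ± 9.87 in ADREX ozone, 49.6 ± 24.3 in ADREX air, 38.03 ± 3.97 in SHAM ozone and 49.9 ± 15.6 in SHAM air livers. It was 30.9, 8.38, 17.6 and 25.9 in ADREX ozone livers, against 42.3, 33.03, 37.00 and 39.8 in SHAM ozone livers, without overlap (log2 change -0.98; limma, adjusted p 0.117). Col8a2, its partner, had 13.9 ± 4.18 in ADREX ozone, 16.3 ± 7.45 in ADREX air, 17.4 ± 6.97 in SHAM ozone and 21.1 ± 10.04 in SHAM air livers, close to the limit for testing.

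Type VI collagen forms beaded filaments around cells from the chains Col6a1, Col6a2 and another such as Col6a3 or Col6a6. Col6a1 had 198 ± 117 in ADREX ozone, 202 ± 13.6 in ADREX air, 179.8 ± 43.8 in SHAM ozone and 249 ± 67.1 in SHAM air livers. Col6a2 had 183 ± 124 in ADREX ozone, 182 ± 45.9 in ADREX air, 199 ± 65.2 in SHAM ozone and 217 ± 40.3 in SHAM air livers. Both had their largest SD in ADREX ozone livers, where ADREX ozone 84 stood high, and single Col6a1 values there were 126, 133, 162 and 373. Col6a3 had 152 ± 82.6 in ADREX ozone, 235 ± 84.9 in ADREX air, 255 ± 71.4 in SHAM ozone and 309.7 ± 143 in SHAM air livers, and Col6a6 had 21.2 ± 8.77 in ADREX ozone, 27.9 ± 10.1 in ADREX air, 19.4 ± 10.01 in SHAM ozone and 35.8 ± 19.6 in SHAM air livers. All 4 chains were below 0 with ozone in SHAM rats and in ADREX rats and with adrenalectomy in air, with medians of -0.35, -0.29 and -0.26, and none passed the test. In ADREX ozone against SHAM ozone livers 2 were below 0 and 2 above, with a median of -0.13. These comparisons share libraries.

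On the surface of fibrils lie Col12a1, Col14a1 and Col16a1. Col12a1 had 51.3 ± 38.8 in ADREX ozone, 52.1 ± 27.1 in ADREX air, 64.2 ± 15.6 in SHAM ozone and 74.4 ± 67.4 in SHAM air livers. Col14a1 had 541 ± 198 in ADREX ozone, 726 ± 259 in ADREX air, 450.3 ± 55.4 in SHAM ozone and 587 ± 128 in SHAM air livers. No change of either passed the test. Col16a1 had 39.96 ± 8.96 in ADREX ozone, 19.1 ± 11.8 in ADREX air, 14.7 ± 7.80 in SHAM ozone and 16.01 ± 14.3 in SHAM air livers. Its libraries held 49.2, 46.1, 32.9 and 31.7 in ADREX ozone livers, against 12.1, 24.5, 16.3 and 5.90 in SHAM ozone livers, without overlap (log2 change 1.51, SE 0.61; limma, adjusted p 0.107). With the neural marker score in the model that change was 0.82 (limma, adjusted p 0.348). Col13a1, a collagen that spans the cell membrane and is known from the nerve-muscle junction, had 83.4 ± 11.55 in ADREX ozone, 81.1 ± 13.5 in ADREX air, 75.3 ± 22.00 in SHAM ozone and 97.1 ± 18.9 in SHAM air livers. Col18a1 had 9806 ± 2549 in ADREX ozone, 12765 ± 909.9 in ADREX air, 9545 ± 1174 in SHAM ozone and 8953 ± 493 in SHAM air livers. Its mean was highest in ADREX air livers, and in ADREX ozone livers, with 9993, 6144, 11637 and 11450.4, it was lower than in ADREX air without overlap (log2 change -0.42; adjusted p 0.247).

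The laminin alpha chains decide where a laminin sits. Lama2, of muscle and nerve, had 76.6 ± 16.6 in ADREX ozone, 118 ± 34.1 in ADREX air, 123 ± 15.5 in SHAM ozone and 151 ± 46.9 in SHAM air livers. It held 62.9, 78.6, 65.8 and 99.3 in ADREX ozone livers, against 103, 127, 123 and 140.1 in SHAM ozone livers, without overlap (log2 change -0.69; limma, adjusted p 0.0845). Lama3 had 69.5 ± 12.8 in ADREX ozone, 120.2 ± 31.4 in ADREX air, 43.9 ± 25.9 in SHAM ozone and 125 ± 29.5 in SHAM air livers. Its single values were 81.2, 62.8, 54.9 and 79.2 in ADREX ozone and 98.9, 119, 98.3 and 165 in ADREX air livers, so that each ozone group lay below its air group. Lama4 had 52.1 ± 18.2 in ADREX ozone, 66.6 ± 37.01 in ADREX air, 34.9 ± 1.38 in SHAM ozone and 76.3 ± 14.2 in SHAM air livers. Lama5, of many epithelia, had 34.4 ± 16.9 in ADREX ozone, 35.3 ± 17.97 in ADREX air, 35.4 ± 12.95 in SHAM ozone and 52.3 ± 30.04 in SHAM air livers, with no difference past the test.

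Of the beta and gamma chains, Lamb1 had 112 ± 54.6 in ADREX ozone, 116 ± 29.3 in ADREX air, 105 ± 19.4 in SHAM ozone and 130.2 ± 36.2 in SHAM air livers. Lamb2, found at vessels and synapses, had 125 ± 34.5 in ADREX ozone, 134 ± 45.4 in ADREX air, 107 ± 26.9 in SHAM ozone and 128 ± 18.9 in SHAM air livers. No change of these beta chains passed the test. Lamc1 had 278 ± 92.2 in ADREX ozone, 359 ± 99.7 in ADREX air, 776 ± 244 in SHAM ozone and 526 ± 121 in SHAM air livers, and was the only laminin chain that passed in ADREX ozone against SHAM ozone livers. Lamb3, a partner of Lama3 in epithelial laminin, had 18.96 ± 5.84 in ADREX ozone, 21.5 ± 11.02 in ADREX air, 44.1 ± 17.5 in SHAM ozone and 28.1 ± 7.28 in SHAM air livers. The mean of Lamb3 was thus highest in SHAM ozone, the group where that of Lama3 was lowest, with no change of Lamb3 past the test. Lamb3 in ADREX ozone against SHAM ozone livers had a log2 change of -1.14 (SE 0.40; limma, adjusted p 0.0689), which edgeR called on the recovered reads (0.0433).

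**Figure D3:**
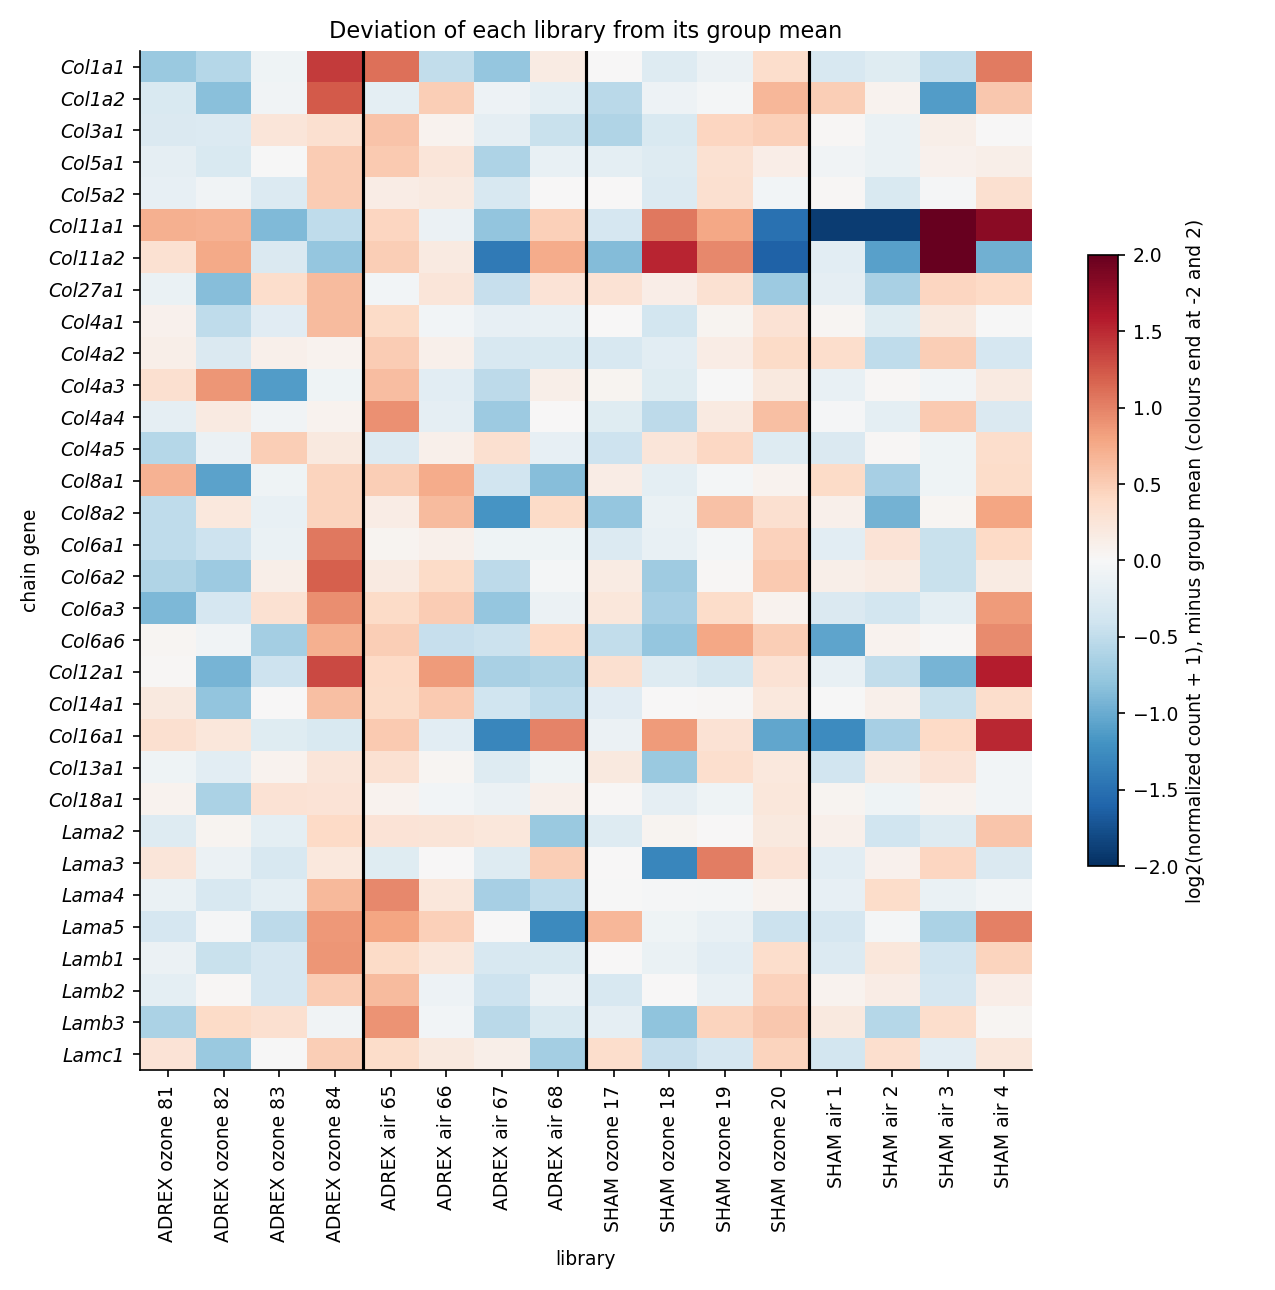
Deviation of each library from the mean of its group on the log2(normalized count + 1) scale (colour) for 32 of the 33 tested chain genes (rows) in the 16 libraries (columns, grouped). ADREX ozone 84 was the highest of its group for 22 of the 33 and ADREX air 67 the lowest of its group for 23.

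Within a group, libraries differed in many chains at once. ADREX ozone 84 was the highest of its 4 for 22 of the 33 chains, with a median deviation of 0.50 on the log2 scale, and SHAM air 4, SHAM ozone 20 and ADREX air 65 were the highest for 17 each. ADREX air 67 was the lowest of its 4 for 23. Subunits of 1 protein were compared over the 16 libraries after the group means were taken off, in 7 pairs with a permutation test. Col6a1 and Col6a2 had r = 0.837 and rho = 0.797, with an adjusted p of 0.00327 for r and 0.00301 for rho. Without the 2 libraries farthest from the median r was 0.641. Col5a1 and Col5a2 had r = 0.786 and rho = 0.729 (permutation, adjusted p 0.00327 and 0.00852; r without 2 libraries 0.798). Lamb1 and Lamc1 had r = 0.749 and rho = 0.791 (permutation, adjusted p 0.00852 and 0.00301; 0.750). Col4a1 and Col4a2, whose starts lie 77 bases apart on opposite strands, had r = 0.625 and rho = 0.635 (permutation, adjusted p 0.00327 and 0.0114; 0.745). These 4 pairs passed without each library in turn, and Col6a1 with Col6a2 lost the call without SHAM air 4 and ADREX ozone 84 together (r = 0.666, adjusted p 0.0611). Col6a1 and Col6a3 had r = 0.650 and rho = 0.621 (permutation, adjusted p 0.0335 and 0.0257; 0.561), and lost the call without any of 6 libraries. With ADREX ozone 84 left out this r was 0.470 (adjusted p 0.147). For Col1a1 and Col1a2 r was 0.547 and rho 0.415 (permutation, adjusted p 0.0989 and 0.160; 0.468), and it passed without ADREX air 65, at r = 0.691 (0.0392), or ADREX air 66, at r = 0.636 (0.0325). For Lama5 and Lamb2 r was 0.405 and rho 0.400 (permutation, adjusted p 0.195 and 0.177; 0.426). No correlation was computed between chains that are not partners, so the correlations are not shown to be particular to the pairs.

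The 33 tested chains and the 3 low ones with at least 20 counts in a library, 36 in all, were also set against 3 marker sums over the 16 libraries, again with group means taken off, which makes 108 relations. For Col11a2 and the neural markers r was 0.905 and rho 0.859 (permutation, adjusted p 0.0119 and 0.0243), and r was 0.830 without the 2 libraries farthest from the median. For Col11a1 r was 0.790 and rho 0.885 (permutation, adjusted p 0.0140 and 0.0243; 0.731). Col5a3, a fibrillar chain, had r = 0.831 and rho = 0.835, and Col9a2, a fibril-associated chain of cartilage, had r = 0.789 and rho = 0.783 (permutation, adjusted p for r 0.0173 and 0.0326). These 4 passed by r and by rho and were positive. Col9a2 was admitted only by its value in ADREX ozone 82 (20.9 counts), the library richest in neural markers. Its relation is therefore tied to the rule of admission. Col5a3 also had its highest value in that library (49.2), and Col11a1 was admitted through ADREX ozone livers. Col16a1 passed by rho, at 0.771, and not by r, at 0.654 (permutation, adjusted p 0.0273 and 0.154; 0.665). The median r of the 36 with neural markers was -0.25. With the neural score in the model the log2 change of Col11a2 against SHAM ozone was 0.86 (limma, adjusted p 0.215). For Lamc1 and neural markers r was -0.69 (adjusted p 0.0751). With endothelial markers 1 of 36 passed, Col4a4, at r = 0.837 and rho = 0.671 (permutation, adjusted p 0.0326 and 0.123; 0.640). With stellate markers none of 36 passed, and the median r was 0.35. Genes other than these 36 were not set against the marker sums, so none of these counts is shown to be particular to chains.

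**Figure D4:**
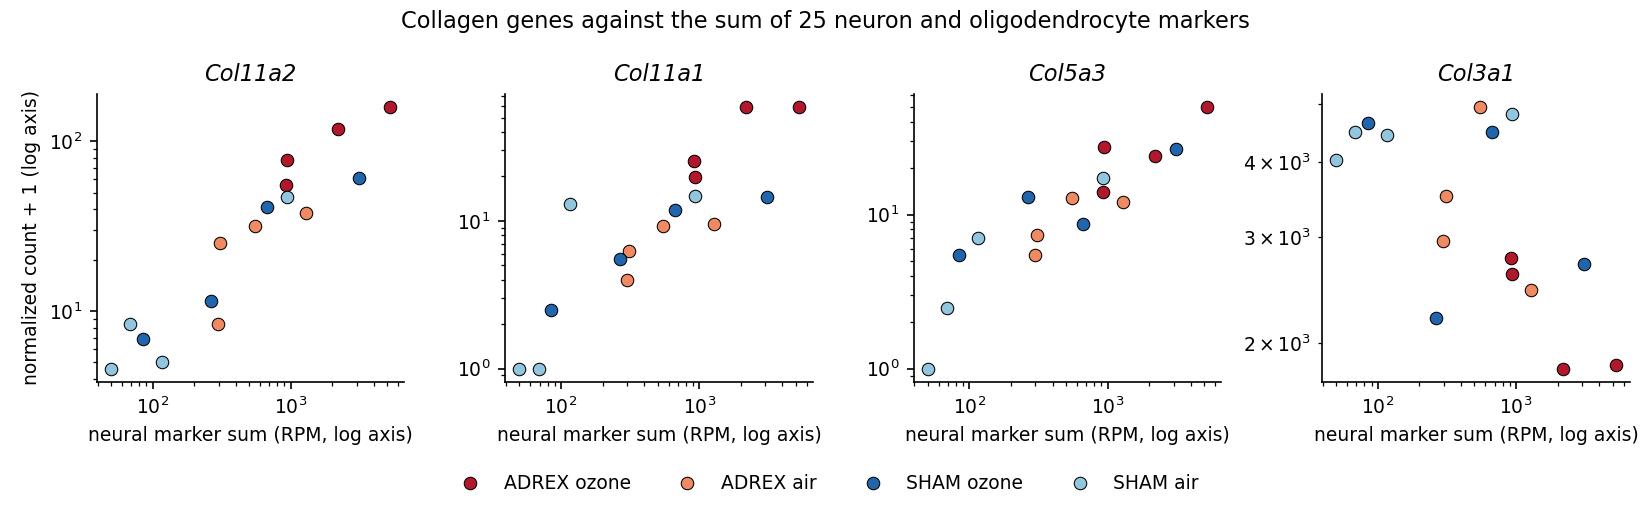
Normalized count plus 1 of Col11a2, Col11a1, Col5a3 and Col3a1 (vertical, log axis) against the summed neural markers in RPM (horizontal, log axis), 1 point per library, coloured by group. The first 3 genes climb with the marker sum, up to 159 for Col11a2 at 5257 RPM in ADREX ozone 82, and Col3a1 does not.

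Genes that make, bind or break down collagen and laminin were counted from 6 lists. Under ozone, adrenalectomized livers had less Loxl4, Lox, Bmp1, Itga1, Sdc4, Dag1 and Adamts1 than sham-operated ones in every alternative run. Of 23 genes for making and crosslinking collagen tested, 1 passed upward and 4 downward, with a list median of 0.07 beside 0.11 for all genes. Loxl4, an enzyme that crosslinks collagen, had 46.9, 39.8, 32.9 and 27.3 counts in ADREX ozone livers, against 193, 256, 207 and 286 in SHAM ozone livers, without overlap (log2 change -2.66; limma, adjusted p 0.000240). Lox, of the same family, had 161, 82.7, 72.4 and 171 in ADREX ozone livers, against 211, 209, 588 and 404 in SHAM ozone livers (-1.49; 0.00995). Bmp1, which cuts the tail from procollagen, had 678, 637, 727 and 846 in ADREX ozone livers, against 1517, 1204, 1659 and 1842 in SHAM ozone livers (-1.10; 0.000541). All 3 passed in each of the 29 alternatives. P4ha1, part of the enzyme that hydroxylates proline in collagen, went the other way, with 211 ± 38.04 in ADREX ozone and 114 ± 6.41 in SHAM ozone livers (0.86; 0.0242), and passed in 24 of 29, not without ADREX ozone 81 or 83 or SHAM ozone 17 or 20 (0.0829 at most). P4ha1 was also lost when the 3 libraries with most neural marker reads were dropped. The remaining call, Mia2, a protein of secretory exit sites, lay outside the limit of 4 named per list and was named after its value was seen (-0.70; 0.00933).

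Of 13 receptors tested 3 passed, all downward, while the list median was 0.08 beside 0.11 for all genes. Itga1, the alpha chain of an integrin that binds collagen and laminin, had 191, 95.3, 127 and 196 counts in ADREX ozone livers, against 449.9, 500.3, 389.6 and 497 in SHAM ozone livers (log2 change -1.64; limma, adjusted p 0.00113). Dag1, dystroglycan, a laminin receptor, had 2175, 1831, 1937 and 1953 in ADREX ozone livers, against 4197, 3590.4, 3651 and 4179.6 in SHAM ozone livers (-0.98; 0.000390). Sdc4, a heparan sulfate receptor, had 8959.8 ± 2159 in ADREX ozone and 20248 ± 4513 in SHAM ozone livers (-1.18; 0.00671). None of these groups overlapped, and the 3 calls held in each of the 29 alternatives. Within SHAM rats Dag1 was higher with ozone, at 3905 ± 329 against 2485 ± 345 in air (0.66; adjusted p 0.0157, lost without SHAM ozone 17 or 20 or SHAM air 2 or in the fit of these 2 groups, 0.0743 at most). Its ozone effect in ADREX minus that in SHAM rats was -1.02 (adjusted p 0.0369), and that call held in 14 of 28 alternatives, not without ADREX ozone 82, 83 or 84, ADREX air 65, 66 or 68, SHAM ozone 17, 19 or 20 or SHAM air 1, 2 or 4 (0.130 at most). That call was also lost without the 3 libraries richest in neural markers, and without SHAM air 4 and ADREX ozone 84 together.

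Among 14 genes of matrix breakdown, 1 passed downward and 1 upward (list median -0.12 beside 0.11). Adamts1, a protease of matrix proteoglycans, had 102, 110.0, 114 and 142 counts in ADREX ozone livers, against 343, 241, 304 and 521 in SHAM ozone livers (log2 change -1.53; limma, adjusted p 0.000947; 29 of 29 alternatives). Timp2, an inhibitor of matrix metalloproteinases, had 216 ± 65.7 in ADREX ozone and 106 ± 35.00 in SHAM ozone livers (1.03; 0.0244; 22 of 29, not without ADREX ozone 81 or 82 or SHAM ozone 17, 19 or 20, 0.122 at most). Timp2 also lost its call with the neural marker score in the model, and when the 3 libraries with most neural marker reads were dropped. Of 11 basement membrane partners, 1 passed each way (median -0.10). Hspg2, perlecan, fell by the test (29.1 ± 18.7 in ADREX ozone and 74.9 ± 29.9 in SHAM ozone livers; -1.44; 0.0498), but held in 12 of 29 alternatives, not without ADREX ozone 81, 82 or 83, ADREX air 66 or 68, SHAM ozone 17, 19 or 20 or SHAM air 1 or 2 (0.168 at most). Hspg2 was also lost with a pseudocount of 10, no filter or the stricter filter, with edgeR and in the fit of these 2 groups. The neural marker score, and leaving out the 3 libraries richest in neural markers, removed the call as well. Sparc, which binds collagen, had 3167 ± 723 in ADREX ozone and 1996 ± 411 in SHAM ozone livers (0.66; 0.0292; 22 of 29, not without ADREX ozone 82 or SHAM ozone 17 or 20, 0.226 at most). Sparc was also lost with edgeR, in the fit of these 2 groups and with the neural marker score in the model. Dropping the 3 libraries with most neural marker reads removed its call too.

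Of 20 genes of TGF-beta, the growth factor that drives matrix production, 2 passed upward and 1 downward (median 0.10 beside 0.11). Tgfb1 had 157, 119, 123 and 161 counts in ADREX ozone livers, against 80.02, 84.4, 76.2 and 67.8 in SHAM ozone livers, without overlap (log2 change 0.84; limma, adjusted p 0.0101). Tgfbi, a secreted protein that TGF-beta induces, had 5373 ± 678 in ADREX ozone and 3403 ± 276 in SHAM ozone livers (0.65; 0.0129). Both calls were lost only without the 3 libraries richest in neural markers, at 0.0698 and 0.0606. Ctgf, another TGF-beta target, lay the other way, with 28.6, 43.99, 15.4 and 20.1 in ADREX ozone livers, against 103, 84.4, 87.1 and 72.3 in SHAM ozone livers (-1.74; 0.0218; 25 of 28, not without ADREX ozone 83 or SHAM ozone 17 or the 3 libraries rich in neural markers, 0.0649 at most). Among 17 other matrix proteins 1 passed, Ogn, a small proteoglycan, with 198 ± 68.02 in ADREX ozone and 321 ± 67.7 in SHAM ozone livers (-0.74; 0.0365; 21 of 29, not without ADREX ozone 81 or 83 or SHAM ozone 19 or 20, 0.101 at most). Ogn was also lost with no filter and in the fit of these 2 groups. The neural marker score, and leaving out the 3 libraries rich in neural markers, removed its call as well. The counts of genes called in these lists stand beside the 12.5% of all genes called in this comparison.

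**Figure D5:**
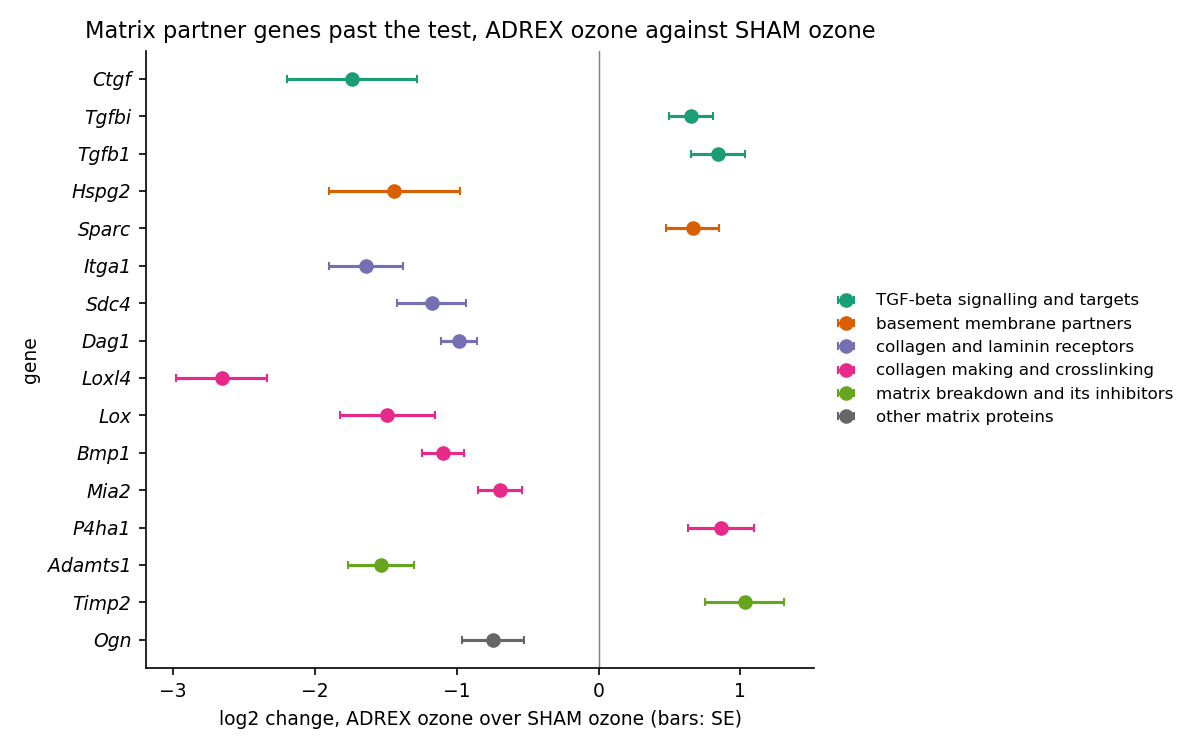
Log2 change, ADREX ozone over SHAM ozone, of the matrix partner genes past the test (points, with SE bars), coloured by list. Loxl4 lies farthest down, at -2.66, and Timp2 farthest up, at 1.03.

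Fewer partner genes passed in the other comparisons. In ADREX air against SHAM air livers, where 3.53% of all genes passed, 3 of 23 collagen-making genes did. Loxl4 had 72.97, 102, 106 and 28.1 counts in ADREX air livers, against 341, 349.5, 380.0 and 417 in SHAM air livers (log2 change -2.41; limma, adjusted p 0.000846). Bmp1 had 775 ± 73.8 in ADREX air and 1348 ± 141 in SHAM air livers (-0.80; 0.00756), and both calls held in 29 of 29 alternatives. Pcolce, which speeds up the cut by Bmp1, had 195, 203, 176 and 113 in ADREX air livers, against 72.9, 57.7, 68.8 and 62.2 in SHAM air livers (1.35; 0.0135), and was lost without ADREX air 66 (0.0548). Lower Bmp1 thus stood beside higher Pcolce. Adamts1 had 150.3 ± 28.2 in ADREX air and 307 ± 72.4 in SHAM air livers (-1.01; 0.0232; 23 of 29, not without ADREX air 66 or SHAM air 1 or 4, 0.0895 at most). Adamts1 was also lost in the fit of these 2 groups, with the neural marker score, and without SHAM air 4 and ADREX ozone 84 together. Of the TGF-beta genes 3 passed upward. Tgfb3 had 81.3 ± 14.96 in ADREX air and 32.99 ± 14.2 in SHAM air livers (1.36; 0.0251; 21 of 28, not without ADREX air 65, 66 or 68 or SHAM air 1 or 2, 0.0882 at most). Tgfbi had 5712 ± 1113 in ADREX air and 3463 ± 163 in SHAM air livers (0.70; 0.0197; 22 of 29, not without ADREX air 65, 66 or 68 or SHAM air 2 or 4, 0.0882 at most). Tgfb3 and Tgfbi were each also lost in the fit of these 2 groups and with the neural marker score in the model. Tgfb1 was the least firm (0.72; 0.0486; 8 of 29, not without ADREX ozone 81 or 83, ADREX air 65, 66 or 68, SHAM ozone 17, 18, 19 or 20 or SHAM air 1, 2, 3 or 4, 0.147 at most). Tgfb1 was also lost with no filter, both rescalings, edgeR, the fit of these 2 groups and the neural marker score. Leaving out the 3 libraries richest in neural markers, or SHAM air 4 and ADREX ozone 84 together, removed the call as well. No gene of the other 3 lists passed in ADREX air against SHAM air livers.

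In SHAM ozone against SHAM air livers, P4ha1 was the other gene that passed besides Dag1, with 114 ± 6.41 in SHAM ozone and 231 ± 47.3 in SHAM air livers (log2 change -0.99; limma, adjusted p 0.0438; 14 of 29, not without ADREX ozone 81 or 83, ADREX air 65 or 66, SHAM ozone 17, 18, 19 or 20 or SHAM air 1, 2 or 4, 0.148 at most). P4ha1 was also lost there with no filter and with the neural marker score in the model. Leaving out the 3 libraries richest in neural markers, or SHAM air 4 and ADREX ozone 84 together, removed this call as well. In ADREX ozone against ADREX air livers no gene of the 6 lists passed. Several list genes in that comparison stood at an unadjusted p under 0.05, namely 2 of 23 for making collagen, 3 of 11 membrane partners, 1 of 14 for breakdown, 6 of 13 receptors, 6 of 20 of TGF-beta and 0 of 17 other matrix proteins, beside 17.8% of all genes. With the neural marker score in the model the counts were 2, 2, 0, 3, 3 and 0 in the same order of lists, and the neural marker sums of these groups stand above. The libraries of each group enter more than 1 of the comparisons between groups, so the results for a gene are not independent.

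Of the 21 low chains, 18 held under 20 counts in every library, with 3 to 69 reads in all 16 libraries together and a highest value of 17.8. A read was found in under 8 libraries for 5 of them, and 12 had a mean below 3.14, the lowest level that 3 reads allow. They include the laminin chains Lama1 and Lamc3 and 16 collagen chains, among them Col2a1 of cartilage and Col7a1 and Col17a1 of skin. The other 3 were Col5a3, Col9a2 and Col22a1. Col5a3 had 22.9, 49.2, 26.3 and 12.95 counts in ADREX ozone, 11.8, 6.35, 4.47 and 11.01 in ADREX air, 12.1, 25.7, 7.62 and 4.42 in SHAM ozone and 1.49, 0, 16.3 and 6.02 in SHAM air livers. Col22a1, known from muscle-tendon junctions, had 7.78 ± 2.94 in ADREX ozone, 15.2 ± 10.3 in ADREX air, 8.73 ± 6.30 in SHAM ozone and 13.9 ± 3.29 in SHAM air livers, with its highest value, 30.6, in ADREX air 65. Col9a2 had 4.57, 20.9, 4.39 and 2.88 in ADREX ozone, 0, 0, 2.98 and 3.67 in ADREX air, 1.51, 7.34, 4.35 and 0 in SHAM ozone and 1.49, 0, 3.75 and 2.01 in SHAM air livers. Col5a3 and Col9a2 thus had their highest values in ADREX ozone livers. Col4a3bp, the ceramide transfer protein, had 1396 ± 346 in ADREX ozone, 1584 ± 254 in ADREX air, 1804 ± 445 in SHAM ozone and 1614 ± 275 in SHAM air livers and passed in no comparison.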

How the data were processed

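The deposited values are gene-level read counts that the authors divided by a size factor per library, a normalized signal. Partek and DESeq2 are named as tools and rn6 as the genome build, per the submitters' processing notes, while the sources used here give no aligner, gene annotation or tool version. Dividing each column by its smallest step gave whole reads within 0.01 for 100% of values. These recovered reads served for RPM, for the alternatives run with edgeR 4.0.16 and DESeq2 1.42.0, and for depth. Groups and replicate numbers came from the sample titles.

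Genes were compared two-sided by limma-trend (limma 3.58.1, R 4.3.3) on log2(value + 1), with a mean for each of 4 groups over 16 libraries (12 residual degrees of freedom plus 4.42 from the prior), for 12791 genes with a mean of at least 14.7. A gene passed at a Benjamini-Hochberg adjusted p under 0.05 over all of these, and adjusted p-values without another tool named are limma's. In parentheses after a partner gene's levels stand its log2 change, its adjusted p and, where given, in how many alternatives it passed. On simulated data with the real libraries' means the script recovered changes made with a known size. Those changes were larger than those of the chains called here, and every gene had the same setting for spread. Recovery of smaller changes was not checked.

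Chains were named if tested or if any library held 20 counts, except 1 tested chain that enters the counts but is not reported here. Partner genes were named if they passed, up to 4 per list and comparison by size of change. Correlations used deviations from group means, with 100000 permutations within groups and Benjamini-Hochberg adjustment over 7 pairs or 108 marker relations. Alternatives were pseudocounts of 10 and 0.5, no filter or a filter at 73.4, 2 rescalings, edgeR, DESeq2, fits of 2 groups, array weights, a neural marker covariate, and leaving out libraries. Members and gene lists were chosen with earlier results of these data known. The 95% intervals rest on the spread between libraries, while the 3-read floor covers counting error only. Python 3.11.15 with SciPy 1.17.1 and matplotlib 3.10.9 made correlations and figures.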

Additional observations from a re-analysis of the deposited data

Results flagged for a closer look

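The highest or lowest library of each group of 4 was checked in the 33 tested chains, which gives 132 groups, by its gap to the nearest other library over the range (Dixon's test at 95%). In 12 groups a library stood apart, 9 of them high and 3 low, and chance alone gives about 1 in 20 groups. ADREX ozone 84 stood above its group for Col6a1 (373 normalized counts, the others 126 to 162), Lama4 (79.2, the others 39.8 to 45.7) and Lamb1 (193, the others 76.5 to 96.1). SHAM air 4 stood above its group for Col12a1 (175, the others up to 52.1), Col1a1 (383, the others 133 to 156) and Col6a3 (524, the others 223 to 254). SHAM air 3 was high for Col11a2 (46.3, the others 3.60 to 7.44) and low for Col6a2 (156, the others 232 to 239). ADREX air 65 was high for Col4a1 (613, the others 421 to 453) and ADREX air 66 for Col1a2 (445, the others 275 to 296). ADREX ozone 82 was low for Col4a2 (116, the others 149.7 to 156) and ADREX air 68 was low for Lama2 (67.3, the others 133 to 138). What sets these libraries apart was not tested.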

How the results depend on the processing

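In ADREX ozone against SHAM ozone livers 1601 genes passed (772 up, 829 down), and the split was 538 up and 1132 down after TMM and 592 and 1025 after median-of-ratios scaling. The count was 3414 with array quality weights, 479 without the 3 libraries richest in neural markers, and 787 to 1848 without each library in turn, the lowest without SHAM ozone 20. In ADREX ozone against ADREX air livers 16 passed (5 up, 11 down; 4 and 18 after TMM, 4 and 15 after median of ratios). That count was 26 with a pseudocount of 10, 36 with no filter, 49 with edgeR, 570 with DESeq2, 2 in the fit of the 2 groups, 330 with array weights, 1 without the 3 neural-rich libraries, and 0 to 50 without each library. In SHAM ozone against SHAM air livers 202 passed, 540 with DESeq2, 1133 with array weights, 107 without the 3 neural-rich libraries and 38 to 658 without each library. In ADREX air against SHAM air livers 451 passed, 835 with DESeq2, 212 in the fit of the 2 groups, 1456 with array weights, 194 with the neural covariate and 194 to 1004 without each library. The difference of the ozone effects gave 14 genes (3 up, 11 down; 1 and 19 after TMM, 1 and 11 after median of ratios), 24 with edgeR, 248 with DESeq2, 182 with array weights, 22 with the neural covariate and 3 to 33 without each library. The cause of these shifts was not tested.

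Chains called in ADREX ozone against SHAM ozone livers were 2, and 4 with a pseudocount of 10, 1 with the stricter filter, which leaves Col4a3 untested, 7 with DESeq2, 10 with array weights and 1 to 5 without each library. Col11a1, admitted through ADREX ozone livers, was among the 4, the 7 and the 10. In SHAM ozone against SHAM air livers the 1 call became 2 with array weights, 0 with the neural covariate, 0 without the 3 neural-rich libraries and 0 to 1 without each library. In ADREX ozone against ADREX air livers the 0 calls became 1 with DESeq2, Col11a1, which entered the test only through ADREX ozone livers. In ADREX air against SHAM air livers they became 1 with array weights and 0 to 1 without each library. Leaving out SHAM air 4 and ADREX ozone 84 together, chosen after seeing the data, gave 6 chains and 1699 genes in ADREX ozone against SHAM ozone, 0 chains and 122 genes in SHAM ozone against SHAM air, 0 genes (limma, 2365 at an unadjusted p under 0.05) in ADREX ozone against ADREX air, 265 genes in ADREX air against SHAM air livers and 3 in the difference. No chain or list gene reversed its direction in a called result. The alternatives for subunit pairs were also chosen after seeing the data. No paired analysis was possible because the groups share no replicate number.

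Chains near 15 counts rest on few reads, since 3 reads are worth 3.14 to 6.02 counts, and at 4 libraries a group 95% intervals of chains lay inside -1 to 1 on the log2 scale for 9 to 18 of 33 between groups. Levels are not corrected for gene length, so they compare groups and not genes.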
